A study of Mus musculus with 16 samples.

Results

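The 9 hepatocyte transcription factors described here are Hnf4a, Foxa1, Foxa2, Foxa3, Cebpa, Onecut1, Prox1, Nr5a2 and Nr1i3. They were taken from the array by gene name or older synonym, and all 9 were found under their current symbols, on 15 probes. Where a gene had several probes, the one brightest on average in liver was used. All 9 passed the filter on dim probes, among 19363 genes tested of 28785 on the array. The filter asked that the scanner marked the liver signal as well above background on 3 arrays or more.

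The livers came from offspring of time-mated C57BL/6BomTac mice. The dams breathed filtered air (controls) or about 42 mg/m3 of UV-Titan, a nano-sized titanium dioxide, by whole-body exposure from gestation day 8 to day 18, 1 hour daily. There were 3 female controls, 5 female UV-Titan, 4 male controls and 4 male UV-Titan offspring, with 1 array each, and the comparison asks whether the dam's exposure altered expression in the offspring's liver. The labels used here do not say which livers came from newborns (postnatal day 2) and which from weaning (postnatal days 23 to 24), nor which animals were littermates, so that age and litter cannot be told apart from the groups. The tissue was random sections of whole liver. Each array held liver RNA (200 ng) in one dye and a purchased universal mouse reference RNA in the other, with no dye swap.

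These factors form the core of the regulatory network of the hepatocyte, the main cell of the liver. The FOXA proteins open chromatin at liver genes in the embryo, HNF4A, C/EBPα and HNF6 (encoded by Onecut1) drive the genes of lipid, glucose and plasma protein metabolism, and many of the factors bind at one another's promoters. PROX1 is a homeobox corepressor, LRH-1 (Nr5a2) controls bile acid and cholesterol genes, and CAR (Nr1i3) senses foreign chemicals and switches on drug-metabolising enzymes.

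The probes that read coding sequence of 5 of the factors are shown because each measures a part of the transcript whose protein function is known. They are 60-base oligonucleotides, in lower case from 5′ to 3′, with positions in mouse build mm7 as the array files give them. The Hnf4a probe lies in the region that encodes the zinc-finger DNA-binding domain, the Cebpa probe in the leucine zipper, the Onecut1 probe in the homeodomain, the Nr1i3 probe in the ligand-binding domain and the Prox1 probe in the C-terminal prospero region. The Onecut1 and Nr1i3 probes stand for their genes below, and the other 3 are second probes.
Hnf4a, chr2:163293456-163293515, plus strand: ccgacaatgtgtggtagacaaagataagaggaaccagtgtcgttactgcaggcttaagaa
Cebpa, chr7:32010056-32010115, plus strand: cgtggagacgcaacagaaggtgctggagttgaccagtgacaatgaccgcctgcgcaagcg
Onecut1, chr9:74927941-74928000, plus strand: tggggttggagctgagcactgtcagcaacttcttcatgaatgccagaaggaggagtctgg
Nr1i3, chr1:171187738-171187797, plus strand: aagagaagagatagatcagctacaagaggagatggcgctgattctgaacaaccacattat
Prox1, chr1:189685802-189692859, minus strand, across an intron: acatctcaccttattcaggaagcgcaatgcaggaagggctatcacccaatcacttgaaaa

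Hnf4a is also shown with the bases before its RefSeq transcription starts, because the gene has 2 promoters and the coding probe above lies downstream of both, so that its signal adds the transcripts of both. The upstream promoter is the one known from pancreas and fetal tissue, and the downstream one is the main promoter of adult liver. The 250 bases before each start are printed from RefSeq in build GRCm38.p6, with capitals marking matches to motifs searched on both strands.
Hnf4a, upstream start, chr2:163506607-163506856, plus strand: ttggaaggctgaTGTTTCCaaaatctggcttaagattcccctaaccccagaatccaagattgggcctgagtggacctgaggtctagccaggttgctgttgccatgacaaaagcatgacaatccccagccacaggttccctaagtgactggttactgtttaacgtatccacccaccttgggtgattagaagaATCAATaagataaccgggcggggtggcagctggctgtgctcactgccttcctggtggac
Hnf4a, downstream start, chr2:163546905-163547154, plus strand: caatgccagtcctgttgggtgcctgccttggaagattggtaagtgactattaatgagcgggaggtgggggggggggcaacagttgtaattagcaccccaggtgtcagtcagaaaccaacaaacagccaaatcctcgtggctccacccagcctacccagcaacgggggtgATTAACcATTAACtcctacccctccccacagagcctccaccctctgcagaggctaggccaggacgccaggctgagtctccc
The letters searched were TGTTTNC (FOXA), CAAAGNNCA (HNF4), GTTAAT (HNF1), ATTGAT (HNF6), TTGCNNAA (C/EBP) and CAAGGNCA (NR5A). The upstream window held a FOXA match at -238 and an HNF6 match at -59, counted from the start site. The downstream window held a pair of adjacent HNF1 matches at -81 and -74. Over the 14 promoters RefSeq gives for the 9 genes, the FOXA letters occurred in 4, the HNF1 letters in 3, the HNF6 letters in 2 and the C/EBP letters in 1, and the HNF4 and NR5A letters in 0. The share of all 32851 promoters with a match was 17.8% for FOXA, 6.43% for HNF1, 6.72% for HNF6, 9.56% for C/EBP, 5.49% for HNF4 and 5.53% for NR5A. These matches are letters in a window and not measured binding sites.

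The array data as a whole were checked before the factors were read. The label fields and the labelling protocol name opposite dyes for liver, and the red channel was taken as liver. In red over green, the median of 9 tested hepatocyte markers was 4.42 to 5.37 on the log2 scale over the 16 arrays. Xist was 1.69 to 2.08 in females and -6.10 to -4.78 in males, and Ddx3y was -2.20 to -1.39 in females and 1.61 to 2.03 in males, so the sexes match their labels. Between 57.7% and 67.1% of spots were well above background in the liver channel, and 62.7% to 69.8% in the reference channel. Male controls 31 and 33 stood apart with exocrine pancreas genes (mean of 14 genes 2.92 and 1.70 above the average array in the liver channel on the log2 scale, against -0.47 to -0.15 on the other 14 arrays), and male UV-Titan 5 stood apart with skeletal muscle genes (2.65, 9 genes, against -0.37 to 0.44). Pnlip and Ptf1a were not well above background on any array. These arrays matter here because Foxa2, Hnf4a, Nr5a2, Onecut1 and Prox1 are also active in pancreas. For males, the number of called factors and the Nr1i3 and Foxa2 differences are also given without all 3. The other male differences include these arrays, and the female groups hold none of them.

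Of the 9 factors, 8 were far brighter in liver than in the reference RNA, on all 16 arrays. Foxa2, which with Foxa1 and Foxa3 opens liver chromatin, had a log2 ratio of liver over reference of 4.71 ± 0.19 (SD over 16 arrays), a 26.1-fold difference. Hnf4a, the nuclear receptor on which most hepatocyte genes depend, had 4.09 ± 0.20, or 17.0-fold. Nr5a2 had 3.93 ± 0.30 (15.3-fold) and Prox1 3.93 ± 0.18 (15.2-fold). Cebpa, a leucine zipper factor of glucose and urea metabolism, had 3.84 ± 0.20 (14.3-fold). Onecut1 had 3.50 ± 0.15 (11.3-fold), Foxa3 3.49 ± 0.17 (11.2-fold) and Nr1i3 3.21 ± 0.15 (9.27-fold). The Foxa3 reference signal was well above background on 12 of 16 arrays, so that its fold rests partly on reference values near background. Among the 19363 genes tested, between 96.8% and 98.8% had a lower mean ratio than each of these 8.

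Foxa1 differed from the others and was close to the reference. Its ratio was 0.21 ± 0.09 (1.15-fold), 60.6% of the genes tested lay below it, and its mean liver signal of 125.3 was well above background on 14 of 16 arrays. The 2 arrays where it was not were male control 31 and male UV-Titan 5. The mean Foxa1 reference signal of 48.3 was the lowest of the 9, and was well above background on 14 of 16 arrays. The label of a hepatocyte factor enriched over the reference therefore held for 8 of the 9 genes. The single Foxa1 probe, dim in both channels, showed no such enrichment.

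The size of these ratios depended on the processing, and Foxa1 stayed the lowest of the 9 in each processing run. With the offset of 50 left out and all else kept, the ratio became 46.0-fold for Nr5a2, 40.6-fold for Hnf4a, 33.9-fold for Prox1 and 31.8-fold for Foxa3. With the scanner's own processed signals, the ratio was 55.7-fold for Nr5a2, 50.4-fold for Hnf4a, 48.0-fold for Foxa3 and 41.9-fold for Prox1, whose reference signals averaged between 50.2 and 66.7. The other 5 moved by less than 1.5 times in both, with Foxa1 at 1.43-fold and 1.55-fold. In the authors' deposited table the 8 bright factors had 8.72-fold (Nr1i3) to 24.5-fold (Foxa2), and Foxa1 had 1.15-fold.

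Genes with several probes gave ratios of different size. The Hnf4a probe used has a median log2 ratio of 4.12, and its other probes had 1.98 and 1.21. The second Cebpa probe had 2.08, and the second Onecut1 probe 3.21. Prox1 was the least settled, since the probe used comes from a cDNA clone that the array file names Prox1, at chr1:189651079-189651138. The 2 probes of the Prox1 RefSeq transcript had medians of 0.98 and 1.04, and their reference signal was well above background on 0 arrays, so no fold is given for them. Across arrays, the liver-channel signal of the Prox1 probe used had r of -0.51 and 0.44 with the other 2 after group means were subtracted, and the Hnf4a probe used had -0.19 and -0.26 with its partners. The 2 Cebpa probes had 0.71.

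**Figure D1:**
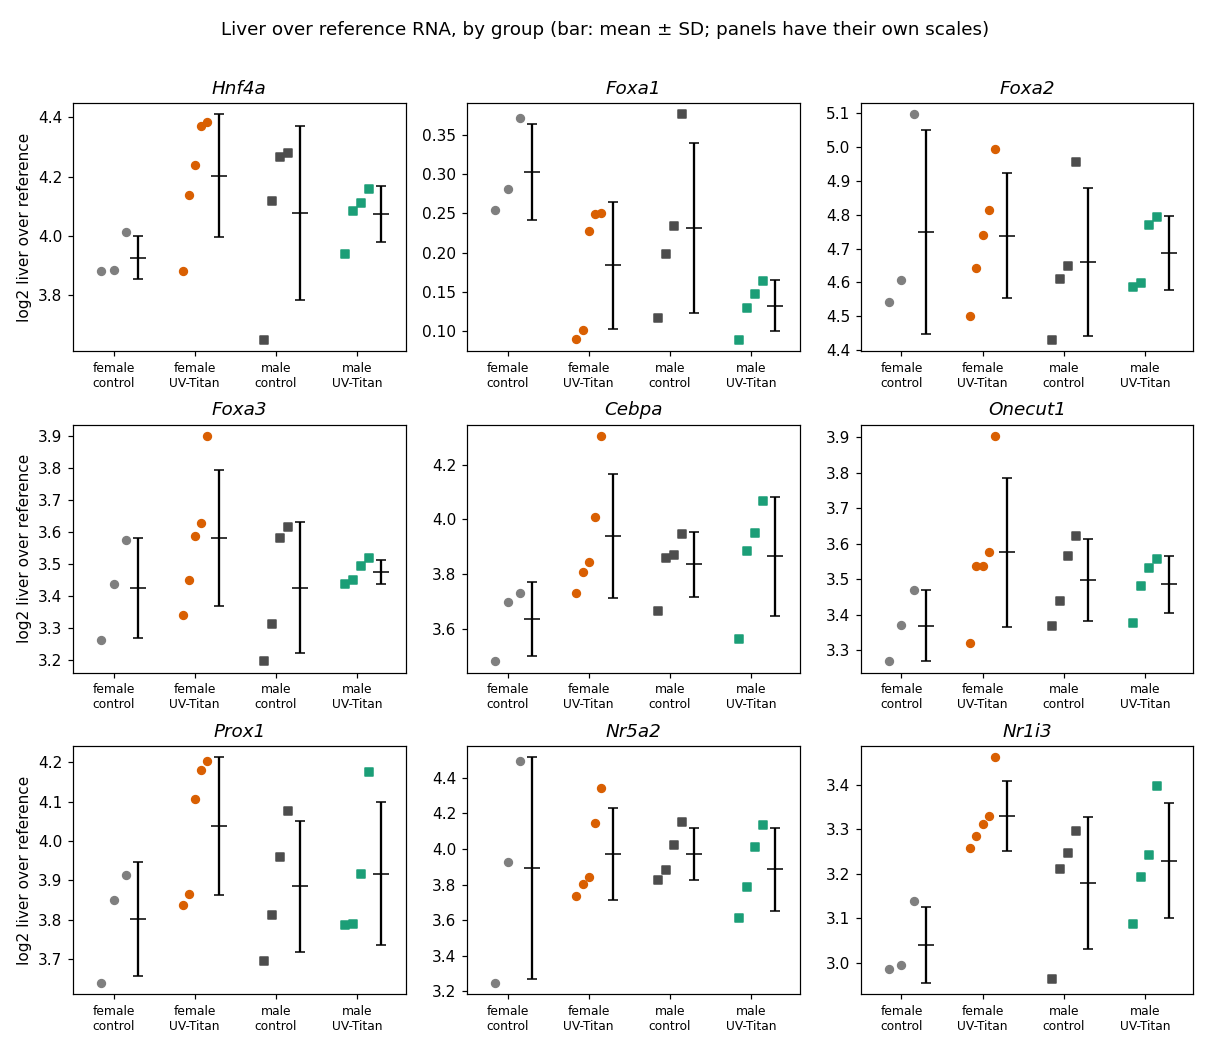
Log2 ratio of liver over reference RNA for each factor, with 1 point per array, the groups on the x axis and the mean ± SD beside the points. Foxa1 lies between 0.09 and 0.38, while the other 8 genes lie between 2.96 (Nr1i3) and 5.10 (Foxa2), and the groups overlap in most panels.

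In female offspring, 0 of the 9 factors passed the test for UV-Titan against control, on either scale. The scales are the log2 ratio of liver over reference and the signal of the liver channel by itself, brought to a common distribution by quantile normalisation. Tests were run in limma, with p-values adjusted (Benjamini-Hochberg) for 19363 genes, and called 0 genes (0%) in each. On the ratio scale, 2 factors had an unadjusted p under 0.05, where 1294 of all genes (6.68%) did. On that scale 7 factors were higher and 2 lower, with a median difference of 0.21 beside 0.02 over all genes, of which 58.5% were higher. In the liver channel alone, 5 were higher and 4 lower, with a median of 0.02, and 1 had an unadjusted p under 0.05, where 602 of all genes (3.11%) did. Female UV-Titan 8 had the highest ratio of any array for Hnf4a, Foxa3, Cebpa, Onecut1, Prox1 and Nr1i3. It was on slide 3, which held no female control. Without it the ratio difference fell from 0.30 to 0.21 for Cebpa and from 0.21 to 0.12 for Onecut1. It fell from 0.28 to 0.23 for Hnf4a and from 0.29 to 0.26 for Nr1i3.

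Nr1i3, the foreign-chemical sensor CAR, showed the smallest p among the factors. Its log2 ratios were 2.99, 3.00 and 3.14 in the 3 female controls and 3.26, 3.29, 3.31, 3.33 and 3.46 in the 5 female UV-Titan livers, so the groups did not overlap. The difference was 0.29 ± 0.08 (SE; 95% interval 0.11 to 0.47), with an unadjusted p of 0.0034 and an adjusted p of 0.61 by limma. Within slides that held both female groups, UV-Titan exceeded control by 0.32, 0.19 and 0.30. On the liver channel alone the groups overlapped (10.76, 10.97 and 11.23 against 11.13 to 11.37), and the difference was 0.26 ± 0.12 with an adjusted p of 0.9995 by limma. Female control 35 was the lowest there, and without it the difference was 0.15.

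Cebpa had log2 ratios of 3.48, 3.70 and 3.731 in the female controls and 3.732, 3.81, 3.85, 4.01 and 4.31 in the female UV-Titan livers. The groups did not overlap, by a margin in the third decimal. The difference was 0.30 ± 0.13, with an adjusted p of 0.70 by limma, and within slides it was 0.31, 0.00 and 0.36. It was 0.18 with the mean of both probes and 0.63 with median centring in place of loess. After median centring, female control 25 had the lowest Cebpa liver signal of all arrays (3.78, beside 4.64 and 4.84 in the other female controls). How far the value of 0.63 rests on that array was not tested. It was 0.02 ± 0.11 in the liver channel alone, while the reference channel of the same spots was lower by 0.22 ± 0.11 in the UV-Titan arrays. The second Cebpa probe had a ratio difference of 0.06 ± 0.13.

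Foxa1 lay the other way. Its ratios were 0.25, 0.28 and 0.37 in the female controls and 0.09, 0.10, 0.23, 0.25 and 0.25 in the female UV-Titan livers. The groups did not overlap, with all UV-Titan values lower, and the same held in the liver channel (6.811 to 7.08 against 6.62 to 6.810, a margin in the third decimal). The differences were -0.12 ± 0.07 and -0.19 ± 0.10, with adjusted p of 0.80 and 0.9995 by limma. Non-overlap in either direction was found for 3 of the 9 factors on the ratio scale, and for 814 of all genes (4.20%). In the liver channel it was found for 1 factor, and for 461 genes (2.38%).

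The other factors in females gave no separation of the groups. Hnf4a had 3.88, 3.89 and 4.01 in controls and 3.88 to 4.39 with UV-Titan, a difference of 0.28 ± 0.13 (adjusted p = 0.75 by limma). Prox1 differed by 0.24 ± 0.12, Onecut1 by 0.21 ± 0.10, Foxa3 by 0.16 ± 0.12, Nr5a2 by 0.08 ± 0.21 and Foxa2 by -0.01 ± 0.14. For Nr5a2 the 3 controls spanned 3.25, 3.93 and 4.50, wider than any other group of any factor. Leaving out female control 25 gave a Nr5a2 difference of -0.24, and leaving out female control 35 gave 0.38.

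Markers of hepatocytes and of several other cell types were also higher in female UV-Titan livers on the ratio scale, with 0 called in any list. All 9 tested hepatocyte markers were higher on the ratio scale, with a median difference of 0.52. Their mean per array, relative to the average array, was -0.52 to -0.28 in female controls and -0.13 to 0.44 in female UV-Titan livers. Their median difference was 0.06 in the liver channel alone, with 6 higher and 3 lower. Other lists higher on the ratio scale included megakaryocyte (6 of 6, median 0.57), liver sinusoidal endothelium (6 of 6, 0.34), macrophage and Kupffer cell (7 of 7, 0.32) and erythroid cell genes (6 of 7, 0.26). Lists of other organs were mostly higher too, namely endocrine pancreas (5 of 5, 0.11), intestine (3 of 4, 0.23) and exocrine pancreas (11 of 14, 0.07). Not all lists rose, with bile duct cell at 4 of 7 higher (0.03), lymphatic endothelium at 3 of 5 (0.09) and proliferation genes at 1 of 5. In the liver channel alone the megakaryocyte median was 0.53, that of sinusoidal endothelium 0.19, of macrophages 0.01 and of erythroid cells -0.01. The part of these lists in the differences of the factors was not tested, and in whole liver fewer hepatocytes and less RNA per hepatocyte cannot be told apart.

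In male offspring, 0 of the 9 factors passed the test on either scale, and limma called 0 genes (0%) on each. On the ratio scale 0 factors had an unadjusted p under 0.05, beside 958 of all genes (4.95%), and the differences ran from -0.10 (Foxa1) to 0.05 (Nr1i3). No factor's groups were free of overlap there, beside 581 genes (3.00%). In the liver channel 1 factor had an unadjusted p under 0.05, beside 621 genes (3.21%), and 1 factor did not overlap, beside 335 genes (1.73%). Both were Nr1i3.

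The Nr1i3 liver channel in males was 11.17, 11.21, 11.24 and 11.42 in controls and 10.71, 11.08, 11.12 and 11.14 with UV-Titan. All UV-Titan values were lower, by 0.25 ± 0.11 on the log2 scale on average (adjusted p = 0.9994 by limma). Without male UV-Titan 17 the difference was -0.15 ± 0.11. The reference channel of the same spots was lower as well, with 7.47 to 7.99 in controls against 7.16 to 7.43 and a difference of -0.28 ± 0.13, which was -0.15 ± 0.11 without male control 43. The log2 ratio, which was normalised by loess and not from these channel values, differed by 0.05 ± 0.08. Over the 16 arrays, with group means subtracted, the liver and reference signals of the Nr1i3 spot had r of 0.80, and the same r was 0.34 to 0.82 over the 9 factors.

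The other factors varied within males without a common direction. Hnf4a ratios were 3.65, 4.12, 4.27 and 4.28 in controls and 3.94, 4.09, 4.11 and 4.16 with UV-Titan. The lowest was male control 31, whose reference signal for Hnf4a (98.2) was the highest of the 16 arrays. Without male controls 31 and 33 and male UV-Titan 5, which held genes of other organs, 0 factors were called in males. The Nr1i3 liver-channel difference was then -0.35 ± 0.15, on 2 controls and 3 UV-Titan livers, and its ratio difference 0.07 ± 0.10, with adjusted p of 0.9999 and 1 by limma. Foxa2, at -0.03 in the liver channel with all arrays, was at -0.23 ± 0.14 without them. In the 2 male controls with pancreas genes, Nr5a2 was 10.53 and 10.82 in the liver channel, and in the other 2 it was 10.51 and 10.64.

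**Figure D2:**
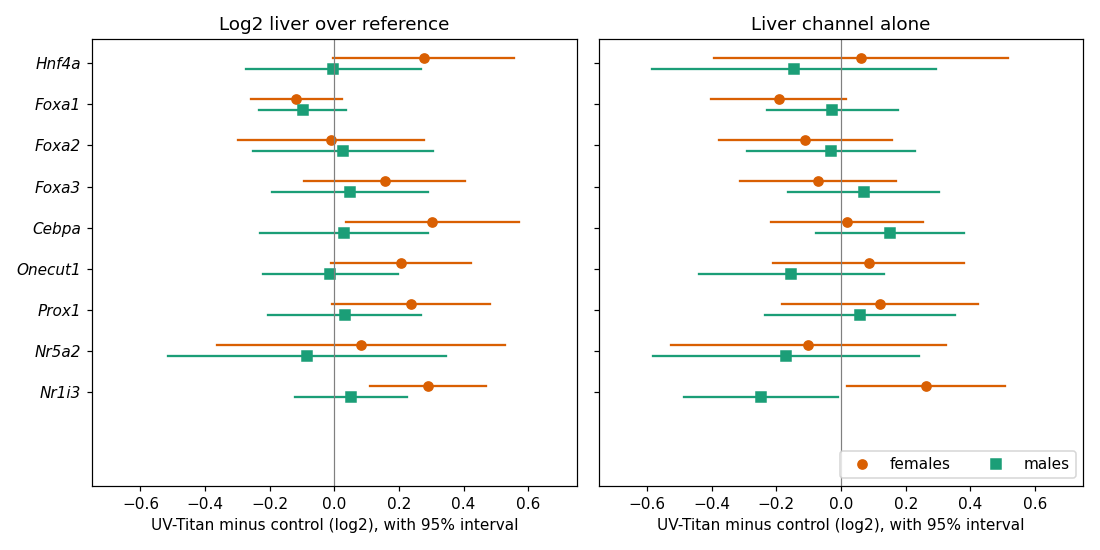
UV-Titan minus control for each factor in females (circles) and males (squares), as log2 differences with 95% intervals, on the ratio scale (left) and in the liver channel alone (right). On the ratio scale the female intervals of Nr1i3 (0.11 to 0.47) and Cebpa (0.03 to 0.57) lie above 0, and in the liver channel those of Nr1i3 lie on opposite sides of 0 in the 2 sexes, all before adjustment over 19363 genes.

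Whether the effect of UV-Titan differed by sex was also tested, and limma called 0 factors and 0 genes (0% on the ratio scale and 0% in the liver channel). At an unadjusted p under 0.05 it held 825 genes on the ratio scale and 547 in the liver channel. The Nr1i3 liver channel gave the smallest p of the factors. Its female effect exceeded its male effect by 0.51 ± 0.16 (unadjusted p = 0.0059, adjusted p = 0.97 by limma), against 0.24 ± 0.12 on the ratio scale (adjusted p = 0.98 by limma). Averaged over both sexes, UV-Titan against control gave 0 called factors and 0 called genes (0% on the ratio scale and 0% in the liver channel). At an unadjusted p under 0.05 that comparison held 1366 and 575 genes. Nr1i3 differed there by 0.17 ± 0.06 (adjusted p = 0.54 by limma) and Foxa1 by -0.11 ± 0.05 (adjusted p = 0.66 by limma) on the ratio scale.

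**Figure D3:**
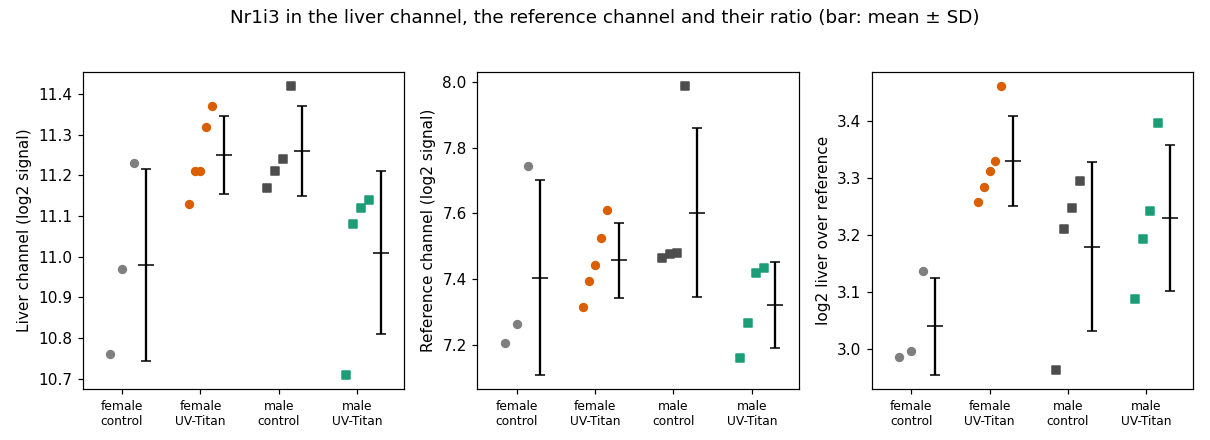
Nr1i3 signal by group in the liver channel (left), the reference channel of the same spots (middle) and the log2 ratio (right), with 1 point per array and the mean ± SD. Each channel was quantile-normalised between arrays and the ratio was normalised by loess, so the ratio is not the exact difference of the channels shown. In males both channels are lower with UV-Titan (by 0.25 and 0.28) and the ratio differs by 0.05, while in females the ratio is higher by 0.29.

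Male against female livers, averaged over exposure, gave 0 called factors. Over all genes 9 (0.0465%) were called on the ratio scale and 7 (0.0362%) in the liver channel. The factors' differences ran from -0.07 (Foxa2) to 0.06 (Cebpa) on the ratio scale, and from -0.13 (Foxa3) to 0.02 (Nr1i3) in the liver channel. The order of the 4 group means was therefore not separated beyond the spread for any of the 9 factors by these tests. For Hnf4a the female controls were lowest (3.93) and the female UV-Titan livers highest (4.20), with both male groups at 4.07 to 4.08 between them.

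Several factors differed between slides, about as often as all genes did. Each slide held arrays of several groups, and the 5 slides were scanned on 4 days. With slide added to the fit (a test chosen after seeing the data), limma called a slide difference for 3 of the 9 factors in the liver channel, beside 34.0% of all genes, and for 5 in the reference channel, beside 57.1%. On the ratio scale it called 0 of the 9, beside 3.74%. The factors called in the liver channel were Hnf4a (adjusted p = 0.00022 by limma), Prox1 (0.0050) and Nr5a2 (0.0498).

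Slide 5 held female control 25, female UV-Titan 16 and male UV-Titan 17. Like slides 3 and 4, it was the only slide scanned on its day. Its liver-channel Hnf4a signals were 11.34, 11.46 and 11.54, above all 13 other arrays (10.53 to 11.14), a mean difference of 0.58. Its Nr5a2 signals were 10.08, 10.13 and 10.21, below all 13 others (10.50 to 11.22), a mean difference of -0.52. The Hnf4a ratios on slide 5 (4.01 to 4.37) lay within the others' range of 3.65 to 4.39, and its reference channel was also higher there (mean 6.77 against 6.32). The Nr5a2 ratios on slide 5 stayed apart, at 3.25 to 3.73 against 3.79 to 4.50. The other 2 Hnf4a probes were not high on slide 5. The coding probe had a mean of 8.41 there against 8.52 to 8.65 on the other slides, and the third probe had 7.98 against 7.73 to 8.43. For the Prox1 probe used, slides 1 and 5 were higher (means 11.08 and 10.99) and slides 3 and 4 lower (10.63 and 10.68). The RefSeq probes of Prox1 did not share this pattern. One of them had 7.40 and 7.39 on slides 1 and 5, against 7.56 and 7.49 on slides 3 and 4. The remaining probe had 7.38 and 7.42, against 7.37 and 7.31.

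**Figure D4:**
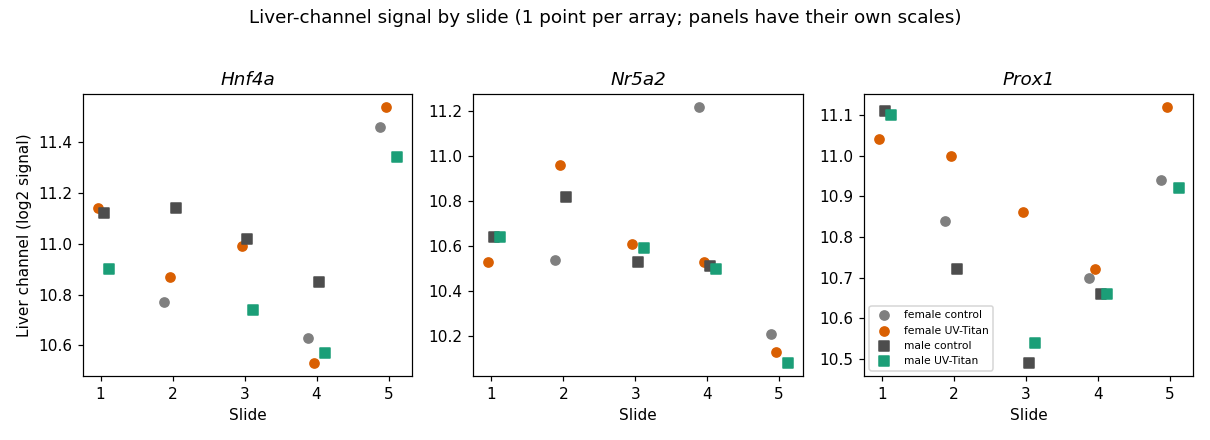
Liver-channel log2 signal of Hnf4a, Nr5a2 and Prox1 by slide, with 1 point per array, coloured by group. On slide 5, arrays of 3 different groups lie together, above the other 13 arrays for Hnf4a (11.34 to 11.54) and below them for Nr5a2 (10.08 to 10.21).

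The factors varied by different amounts within groups. Nr5a2 had the widest within-group SD on the ratio scale (0.33) and Foxa1 the narrowest (0.08), beside a median of 0.13 over all genes. Hnf4a (0.33) and Nr5a2 (0.31) were the widest in the liver channel, beside a median of 0.17 over all genes. With group means subtracted, 33 of the 36 pairs of factors were positively correlated on the ratio scale over 16 arrays, with a median r of 0.40. Foxa3 and Onecut1 were the closest pair (r = 0.86), and Foxa2 and Nr5a2 had 0.72. In the liver channel alone 26 of 36 pairs were positive, with a median of 0.21, and Hnf4a and Nr5a2 had -0.67. These values are descriptions over arrays that share slides, a reference RNA and, in unknown part, litters. Without the 3 arrays with genes of other organs the medians were 0.46 and 0.23.

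**Figure D5:**
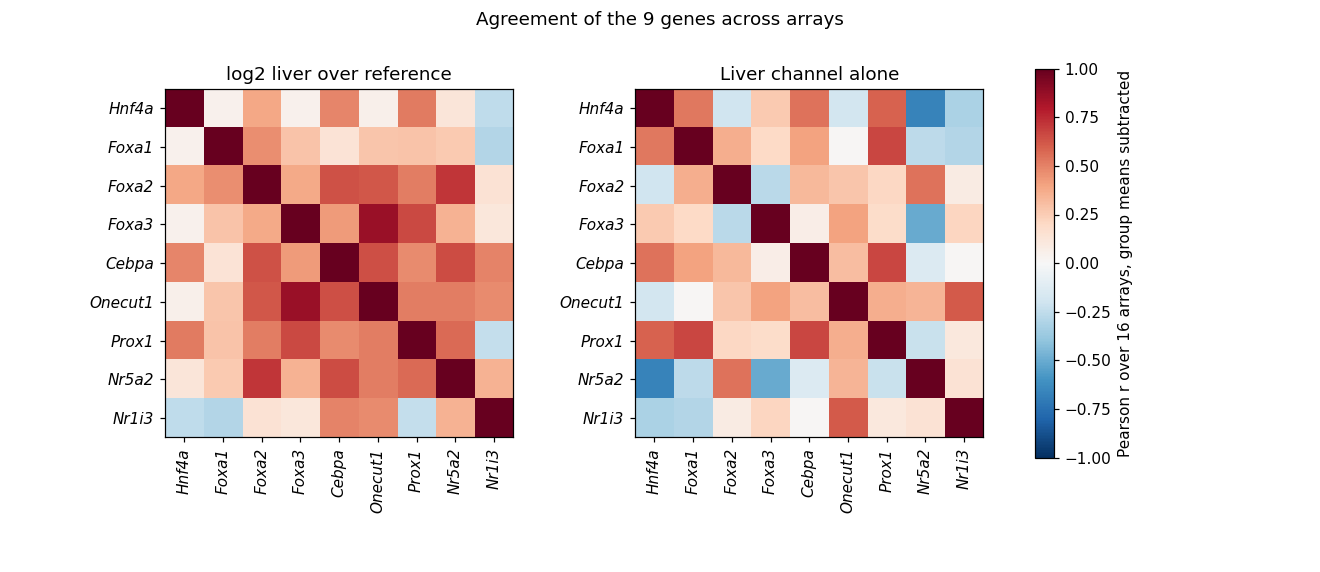
Pearson r between each pair of factors over 16 arrays after subtracting group means, for the log2 ratio (left) and the liver channel (right). Most pairs are positive on the ratio scale (33 of 36); the liver channel holds a negative pair of Hnf4a and Nr5a2 (-0.67).

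The genes whose liver signal followed each factor most closely were found among 16204 other genes (16205 for Foxa1) well above background on all 16 arrays, by r after subtracting group means. Slide was not subtracted, and slide differences were called in this channel for Hnf4a, Prox1 and Nr5a2. The Hnf4a probe used had r of -0.19 and -0.26 with the other Hnf4a probes. The values below are the highest of many. Nr1i3 was followed by Stab1 (r = 0.94), a scavenger receptor of liver sinusoidal endothelium, and by Apoa1 (0.91), the main apolipoprotein of high-density lipoprotein. Nr5a2 was followed by Qpctl (0.96), an enzyme that modifies protein N-termini, and Hnf4a by 2310002J21Rik (0.97) and Fkbp1a (0.96), a prolyl isomerase. Onecut1 was followed by Bche (0.90), a plasma cholinesterase made by liver. Prox1 was followed by Ccdc69 (0.95), Rhob (0.95), a small GTPase, and Dpp9 (0.95), a peptidase. The leading genes for the other factors were Ccl9 for Foxa2 (0.85), Ncald for Foxa3 (0.87) and Rnf146 for Cebpa (0.83). Foxa1 was followed most closely by a cDNA without a gene symbol (0.90), and next by Klhl21 (0.88).

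Genes that these factors are known to control were read from lists, and 0 members of any list were called in either sex on either scale. The lists share genes with one another and with the hepatocyte markers, so they are not separate results. Ttr is on the HNF4A, FOXA, HNF6 and hepatocyte lists, and Tat is on the FOXA, CEBPA and hepatocyte lists. Of 14 measured HNF4A targets, 13 were higher in females on the ratio scale (median 0.34) and 3 in the liver channel (median -0.07). Fabp1, a fatty-acid carrier, differed by 0.87 ± 0.40 on the ratio scale and by -0.02 in the liver channel. All 7 FOXA targets were higher on the ratio scale (median 0.61), and 5 in the liver channel (median 0.06). Ttr, the thyroid hormone carrier, differed by 0.49 ± 0.15 and -0.07 on the 2 scales. All 8 CEBPA targets were higher on the ratio scale (median 0.44) and 5 in the liver channel (median 0.18). Tat, the tyrosine-degrading aminotransferase of both lists, differed by 0.44 ± 0.13 on the ratio scale and by 0.53 in the liver channel in females. In males it differed by -0.39 and -0.85, with an adjusted p of 0.95 by limma for the male ratio.

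The targets of the remaining factors were as follows. Of 13 CAR targets, which encode enzymes and carriers of foreign chemicals, 10 were higher in females on the ratio scale (median 0.26) and 5 in the liver channel (median -0.02). Cyp2b10, the classic CAR-induced enzyme, differed by -0.05 in females and -0.22 in males on the ratio scale, and by -0.12 and -0.30 in the liver channel. Cyp3a11 differed in females by 0.38 ± 0.14 on the ratio scale and by -0.06 in the liver channel. Gadd45b, a stress-response gene, differed in females by 0.58 ± 0.20 and 0.46 on the same scales, and Cyp2c55 by -0.31 ± 0.11 and -0.19. Of 7 LRH-1 targets, 6 were higher in females (median 0.09), among them Nr0b2, the bile acid corepressor SHP, at 0.69 ± 0.29, while Cyp7a1, the rate-limiting enzyme of bile acid synthesis, was at -0.38 ± 0.25. Of 6 HNF6 targets, among them Foxa2 itself, 4 were higher (median 0.03). These LRH-1 and HNF6 values are on the ratio scale. In the liver channel, 5 LRH-1 targets (median 0.08) and 1 HNF6 target (median -0.09) were higher in females. In males the medians on the ratio scale were -0.12 for HNF4A, -0.39 for FOXA, -0.22 for CEBPA, -0.11 for CAR, 0.12 for LRH-1 and 0.03 for HNF6 targets, beside 0.02 over all genes.

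Other liver transcription factors and cofactors gave 0 calls as well. Of 40 other factors, 37 were higher in females on the ratio scale (median 0.12) and 26 in the liver channel (median 0.06). Zbtb20, a repressor of Afp, differed by 0.38 ± 0.13 on the ratio scale and 0.41 in the liver channel, and Mlxipl, the carbohydrate sensor ChREBP, by 0.37 ± 0.14 and 0.15. Of 14 cofactors, 13 were higher in females on the ratio scale (median 0.10) and 8 in the liver channel (median 0.02). Ppargc1a, the coactivator PGC-1α of HNF4A, was at -0.56 in males on the ratio scale.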

How the data were processed

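Two-colour intensity values come from the deposited scanner files (Feature Extraction 9.5.3.1, per the labels' protocols), and log2 ratios from the authors' deposited value table served as an alternative. How that table was normalised is not given in the sources used here; it followed the scanner's red over green ratios (r 0.960 to 0.977 per array), with column medians of -0.045 to -0.0375. In limma 3.58.1 under R 4.3.3, normexp (offset 50) removed background from both channels and loess normalised the ratios of every array. For values of single channels, the liver and the reference channel were each quantile-normalised between arrays instead. Control and outlier spots were left out (90 to 135 outlier spots per array). Spots of a probe were averaged, and the brightest probe stood for a gene.

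One model with a mean per group was fitted to 16 arrays, with Benjamini-Hochberg adjustment over all genes at 0.05, and every p for a gene comes from it. The number of arrays limits the precision. No label gives litters, so p-values measure the spread between these animals. The limma fit was tested on simulated log2 ratios with known changes in female UV-Titan. The steps before the fit, the liver channel and slide differences were not simulated. Alternatives covered background, normalisation, filter, probes, slide, scan day, array weights and left-out arrays; the slide test, within-slide values, single-probe tests, levels under other processing and the reference channel without each array were chosen after seeing the data. The 9 genes and all lists were chosen with earlier results of these data known. From each list at most 4 genes by female p and 4 by male p were nameable, with the 3 genes most like each factor; Cyp7a1 and Cyp2b10 fall under that rule. Positions are mm7, and promoters come from RefSeq (GRCm38.p6), which matched all 9 genes. One gene of the lists is not reported here.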

Additional observations from a re-analysis of the deposited data

Results flagged for a closer look

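Each factor was read in 3 groups of 4 or 5 animals and 3 measures, 81 group readings in all, and in 8 of them 1 array lay far from the rest of its group by Dixon's criterion, which chance alone meets in about 1 of 20. In the liver channel, Cebpa in male control 31 was 11.32, with the next value at 11.67, and Nr1i3 in male UV-Titan 17 was 10.71, with the next at 11.08. Foxa1 in female UV-Titan 10 was 6.621, with the next at 6.765. Male control 31 is one of the arrays with pancreas genes, and male UV-Titan 17 is on slide 5.

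The other 5 lay in the reference channel, which holds the same RNA on every array. Nr1i3 in male control 43 was 7.99, with the next at 7.48. Foxa1 and Foxa3 in female UV-Titan 16, on slide 5, were 6.25 and 6.33, Onecut1 in female UV-Titan 10 was 7.70, and Nr5a2 in male UV-Titan 4 was 6.24.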

How the results depend on the processing

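Across every alternative run, 0 factors were called for UV-Titan in either sex. The alternatives were processed signals, median centring, the authors' table, no filter, blocks for slide or scan day, array weights, the mean of all probes, leaving out 3 arrays with other organs, and leaving out each array. The smallest adjusted p for a factor was 0.067 by limma (Nr1i3 in the female ratio with array weights). Among all arrays, female control 35 had the lowest weight (0.35) and female control 40 the highest (2.95). Female control 25 had 0.55, so the weighted mean of the female controls leaned on female control 40. Counts of called genes changed on the ratio scale. In females, array weights gave 75 genes, and a block for slide or for scan day gave 1 each. Averaged over the sexes, array weights gave 46, scan day 10 and slide 1. In males, processed signals gave 1. Leaving out 1 array gave 0 to 1 genes in females and 0 to 11 averaged over the sexes (11 without male control 43, 3 without female control 35). The cause of these changes was not tested. Over 9 factors in each of the other settings, the difference changed sign in 3 of 81 values for the female ratio and in 21 of 81 for the male ratio. The Nr1i3 female ratio difference ranged from 0.17 (processed signals) to 0.59 (median centring), and was 0.27 with slide as a block. After median centring, female control 25 had the lowest Nr1i3 liver signal of all arrays (2.97, beside 3.66 and 4.30 in the other female controls). The part of that array in the value of 0.59 was not tested. No paired analysis was possible because the groups share no replicate numbers; slide, which they do share, was fitted as a block instead. Dim reference signals limit the ratios of Hnf4a, Foxa1, Foxa3, Prox1 and Nr5a2.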
